A study of Mus with 10 samples.

Results

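*Ncr1*, which encodes the receptor NKp46, and 6 other genes of the same stretch of mouse chromosome 7 were examined in liver type 1 innate lymphoid cells (ILC1s). The 7 genes were taken by name from the 24564 rows of the deposited count table. They were *Myadm*, *Lair1*, *Leng8*, *Ncr1*, *Rdh13*, *Eps8l1* and *Ppp1r12c*, in the order in which they lie on the chromosome. They had been chosen by their position and by the difference of their counts between the genotypes. That difference is therefore given below as a description. Thresholds that the 7 passed are listed, but are no independent test of them. All 7 passed the filter on low counts, which kept 11463 genes for testing.

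The libraries came from ILC1s sorted from the livers of C57BL/6 mice that were 6 to 8 weeks old by the methods of the study, of either sex. In the 5 *Ncr1*gfp/gfp libraries, called Ncr1-KO as in the labels, *gfp* takes the place of *Ncr1* on both chromosomes, and in the 5 *Ncr1*+/+ libraries, called Ncr1-WT, the locus is intact. The labels name no treatment. The mice of the genotypes are not described as littermates, so genotype and breeding origin cannot be told apart. The sort itself read the locus under study, since Ncr1-WT ILC1s were recognized by NKp46 staining and Ncr1-KO ILC1s by GFP. Whether a library held the cells of a single mouse is not given in the sources used here. P-values therefore measure the spread between libraries, which may in part be technical.

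NKp46 is an activating receptor of natural killer (NK) cells and ILC1s. It has no signaling motif of its own and signals through the adaptors CD3ζ and FcRγ, which recruit the kinases ZAP-70 and SYK. Its gene belongs to the leukocyte receptor complex, a cluster of immunoglobulin-like receptor genes that lie among unrelated genes needed in most cells. The comparison asks how *Ncr1* and the genes beside it are expressed where the locus is altered.

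Depth was similar in both genotypes. The total count was between 17996935 and 22623133 in Ncr1-WT and between 15796253 and 21975879 in Ncr1-KO libraries. Levels are given as CPM, the counts of a gene scaled to a library total of 1000000 after TMM normalization, and 3 counts corresponded to between 0.132 and 0.190 CPM. Of the 8 ILC1 markers, 7 were in the table and all 7 passed the filter. Their summed level without *Ncr1* was 3928 to 4136 CPM in Ncr1-KO and 3790 to 4066 CPM in Ncr1-WT libraries. The summed T cell markers, of which 6 of 7 were in the table, 5 were tested and none was at 0 in all libraries, were at 632 to 835 CPM in Ncr1-KO and at 461 to 579 CPM in Ncr1-WT libraries, without overlap. *Cd3e* and *Cd8a* of this list rose, with log2 fold changes of 1.88 and 1.53 (adjusted p = 0.00235 and 0.0248 by Benjamini-Hochberg, edgeR's quasi-likelihood test). *Cd3g* made up most of the summed level, at 687 CPM in Ncr1-KO against 501 CPM in Ncr1-WT ILC1s. It passed an adjusted p of 0.05 in that test but not the fold threshold, and *Cd3d* and *Cd4* did not pass. *Cd8b1*, which did not pass the filter, went the other way, with means of 0.0106 CPM in Ncr1-KO and 0.304 CPM in Ncr1-WT ILC1s. The part of these transcripts in the results below was not tested. The myeloid list was at 1667 to 1779 against 1337 to 1484 CPM, nearly all of it from *Itgax*. Without *Itgax* it was at 6.58 to 44.3 CPM in Ncr1-KO and 11.9 to 44.1 CPM in Ncr1-WT libraries. The summed markers of NK cells, B cells, platelets, hepatocytes, endothelial cells, and ILC2s and ILC3s overlapped between the genotypes.

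*Ncr1* was among the most abundant transcripts of Ncr1-WT ILC1s and was present at a reduced level in every Ncr1-KO library. The deposited table lists it at positions 4289326 to 4296766 of chromosome 7, plus strand, in coordinates whose genome build the table does not name, with 1463 bases of exon. In Ncr1-WT replicates 1 to 5 it had 2144, 2072, 2083, 1913 and 1936 CPM. In Ncr1-KO replicates 1 to 5 it had 340.0, 356, 141, 172 and 285 CPM. The groups were far apart and did not overlap. The mean was 2029 ± 99.97 CPM in Ncr1-WT and 259 ± 97.5 CPM in Ncr1-KO ILC1s (SD, n = 5 per genotype), a 7.84-fold difference and a log2 fold change of -2.97 (standard error 0.18). In bulk samples, fewer cells that express a gene and less RNA per cell cannot be told apart. The counts are per gene, so it cannot be seen from them which exons of *Ncr1* the remaining reads came from, and reads outside the replaced part would not check the label.

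The Ncr1-KO libraries differed among themselves in the remaining *Ncr1* reads far more than the Ncr1-WT libraries did. As shares of the Ncr1-WT mean, the Ncr1-KO replicates 1 to 5 stood at 16.8%, 17.5%, 6.97%, 8.46% and 14.04%. Replicates 3 and 4 were low, and replicates 1, 2 and 5 were high. The coefficient of variation was 37.7% in Ncr1-KO and 4.93% in Ncr1-WT ILC1s. Among the 1582 other tested genes whose mean CPM in Ncr1-KO ILC1s was within 2-fold of that of *Ncr1*, the median coefficient of variation was 6.27%, and 0.126% of them varied more. In Ncr1-WT ILC1s the median of 60 genes of like level was 4.76%, and 48.3% of them varied more than *Ncr1*. The spread within a genotype played no part in the choice of the gene.

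*AA986860* and *Knl1* were among the genes whose deviations from the genotype mean followed those of *Ncr1* most closely. Over 10 libraries and 11462 other tested genes, Pearson's r of these deviations on the log2 scale was 0.93 and 0.92. They stand among the highest of many, so the values are a description. *Knl1*, a kinetochore scaffold used in cell division, had 11.1, 7.95, 1.75, 2.68 and 4.70 CPM in Ncr1-KO replicates 1 to 5. *AA986860* had 1.08, 1.37, 0.371, 0.238 and 0.833 CPM in the same libraries. For both, replicates 3 and 4 were the lowest, as they were for *Ncr1*. The log2 fold changes of Ncr1-KO over Ncr1-WT ILC1s were 0.25 for *Knl1* and -0.41 for *AA986860*, neither past the test (adjusted p = 0.877 and 0.862, edgeR's quasi-likelihood test).

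**Figure D1:**
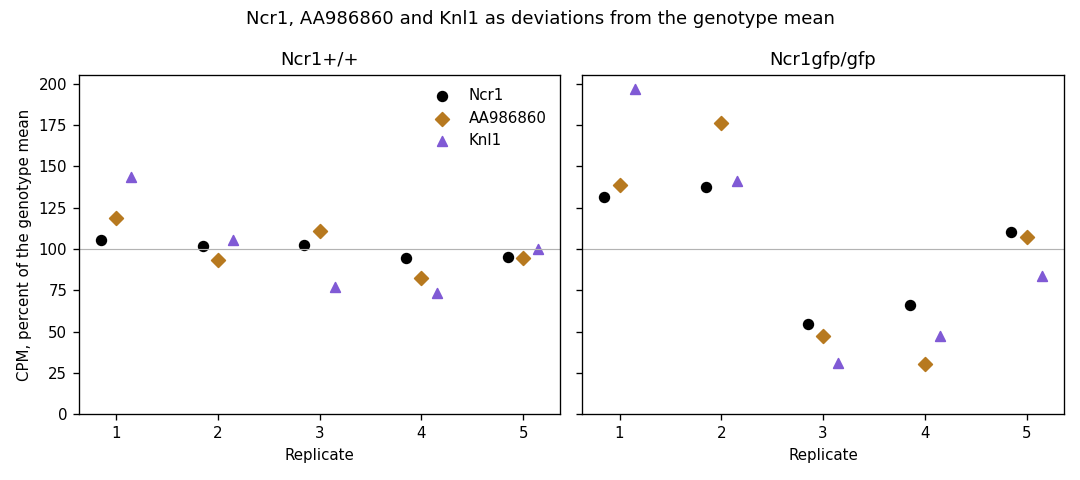
CPM of *Ncr1*, *AA986860* and *Knl1* in each library (x axis, replicate) as a percentage of the mean of its genotype (y axis, linear), with Ncr1-WT libraries on the left and Ncr1-KO libraries on the right. In Ncr1-KO replicates 3 and 4 all 3 genes lie under 100%, while the Ncr1-WT points of *Ncr1* stay close to 100%.

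When the levels themselves were compared over the 10 libraries, the genes most like *Ncr1* were *Psd2*, *Rnase4* and *Lmln*, with r of 0.96, 0.95 and 0.94. Such r takes in the difference between the genotypes, by which *Ncr1* was chosen. These 3 genes are also the highest of 11462, so the values are a description. All 3 had lower means in Ncr1-KO ILC1s, at 6.58 against 13.6 CPM for *Psd2*, 7.14 against 13.1 CPM for *Rnase4* and 0.745 against 1.92 CPM for *Lmln*. 

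*Eps8l1* was expressed in every Ncr1-WT library and close to absent from every Ncr1-KO library. It encodes an EPS8-like adaptor that links receptor signaling to the actin cytoskeleton. It lies on the plus strand from 4416337 to 4432089, and its start is 127 kb from that of *Ncr1*. Its counts were 268, 1323, 1238, 337 and 291 in Ncr1-WT replicates 1 to 5 and 0, 0, 13, 1 and 1 in Ncr1-KO replicates 1 to 5. In CPM, the Ncr1-WT libraries had 15.03, 58.4, 61.9, 17.0 and 15.8. The groups did not overlap, and 13 of the 15 counts of the Ncr1-KO libraries came from replicate 3. The mean was 33.6 ± 24.2 CPM in Ncr1-WT and 0.161 ± 0.296 CPM in Ncr1-KO ILC1s (SD, n = 5 per genotype), a log2 fold change of -7.61 (standard error 0.63).

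The level left in Ncr1-KO ILC1s depended on that library. With all 5 libraries pooled, the 15 counts gave 0.495% of the Ncr1-WT mean (95% exact Poisson interval 0.277% to 0.816%). Without replicate 3, the remaining 4 libraries held 2 counts, or 0.0835% of the Ncr1-WT mean (95% exact Poisson interval 0.0101% to 0.302%), and the fitted log2 fold change was -9.92. Both intervals cover counting error only, as PCR copies are not independent molecules. Ncr1-KO replicate 3 also had the highest summed hepatocyte markers, at 194 CPM against 123 to 146 CPM in the other Ncr1-KO libraries. *Trf* made up most of the mean sum, at 135 CPM in Ncr1-KO and 138 CPM in Ncr1-WT ILC1s. The sum reached 176 CPM in Ncr1-WT replicate 1. All 6 genes of this list were in the table, 3 were tested and none was at 0 in all libraries. Replicate 3 was also the highest Ncr1-KO library in the summed myeloid markers without *Itgax* (44.3 against 6.58 to 24.7 CPM). The same held for the platelet markers (6.51 against 1.65 to 4.94 CPM) and the ILC2 and ILC3 markers (177 against 134 to 173 CPM). In the B cell markers it was the lowest (2.49 against 3.56 to 4.98 CPM). In the T cell, NK cell and endothelial markers another Ncr1-KO library was the highest. The part of any of these cells in the *Eps8l1* counts was not tested. The share of *Eps8l1* reads that remained was much smaller than that of *Ncr1*, whose reads stood at 12.7% of the Ncr1-WT mean.

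Within Ncr1-WT ILC1s, *Eps8l1* took values at separate levels. Replicates 2 and 3 had 58.4 and 61.9 CPM, whereas replicates 1, 4 and 5 lay between 15.03 and 17.0 CPM, with none between. The coefficient of variation was 72.1%. The median of 3787 other tested genes of like level was 10.8%, and 0.0528% of them varied more. *Ncr1* itself did not follow this division, with 2072 and 2083 CPM in replicates 2 and 3 and 1913 to 2144 CPM in the others. *D630041G03Rik*, a transcript on the minus strand that lies inside *Eps8l1* from 4418847 to 4422486, had counts of 5 and 4 in Ncr1-WT replicates 2 and 3 and 0 in the other Ncr1-WT libraries. It had 1 count in the 5 Ncr1-KO libraries together, and it did not pass the filter. The library kit does not mark strand, so that reads from the 2 genes cannot be told apart where they overlap.

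The genes whose levels were most like those of *Eps8l1* over the 10 libraries were *Wls*, *Map4k1* and *Iqsec2*, each with r of 0.94. As for *Ncr1*, r of levels takes in the difference between the genotypes and is a description. *Wls*, which carries Wnt proteins to the cell surface, had 62.8 CPM in Ncr1-KO and 92.0 CPM in Ncr1-WT ILC1s. *Map4k1*, a kinase of lymphocyte receptor signaling, had 81.2 and 96.5 CPM. In deviations from the genotype mean, the highest r was 0.94 for *Scd1*, a fatty acid desaturase that the liver makes in large amounts. *Scd1* was at 9.37 CPM in Ncr1-KO replicate 3 and at most 1.49 CPM in the other Ncr1-KO libraries. In Ncr1-WT replicates 2 and 3, where *Eps8l1* was high, *Scd1* had 1.68 and 1.70 CPM, and in Ncr1-WT replicates 1, 4 and 5 it had 0.841, 1.11 and 0.653 CPM.

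The EPS8 family was otherwise nearly silent in these cells. *Eps8*, *Eps8l2* and *Eps8l3* did not pass the filter, with means of at most 0.257 CPM in either genotype. The partners of EPS8 proteins on the way to Rac were expressed, with *Abi1* at 196 CPM in Ncr1-KO and 195 CPM in Ncr1-WT ILC1s and *Abi2* at 75.5 and 75.6 CPM. None of the 4 tested partners, which also include *Baiap2* and *Sos1*, passed an adjusted p of 0.05 (edgeR's quasi-likelihood test). The median log2 fold change of the 5 tested genes of this list, *Eps8l1* included, was -0.00, and that of all 11463 tested genes was 0.00.

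*Myadm* was the member with a clearly higher level in Ncr1-KO ILC1s. It encodes a membrane protein with MARVEL domains that is found at ordered membrane regions. It lies on the plus strand from 3289039 to 3299350, its start 1000.3 kb from that of *Ncr1*, the farthest of the 7. In Ncr1-KO replicates 1 to 5 it had 46.0, 48.9, 50.6, 52.5 and 47.0 CPM. In Ncr1-WT replicates 1 to 5 it had 8.91, 15.1, 12.3, 20.1 and 19.5 CPM. All Ncr1-KO libraries were close together and above all Ncr1-WT libraries. The mean was 49.01 ± 2.61 CPM in Ncr1-KO and 15.2 ± 4.74 CPM in Ncr1-WT ILC1s (SD, n = 5 per genotype), a 3.23-fold difference and a log2 fold change of 1.69 (standard error 0.16).

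The spread of *Myadm* was unlike that of *Ncr1*, with the wider values in Ncr1-WT ILC1s. The coefficient of variation was 31.2% in Ncr1-WT ILC1s, where 3.27% of 3059 genes of like level varied more. It was 5.34% in Ncr1-KO ILC1s, where 90.7% of 3808 genes of like level varied more. *Ttc7b*, *Itgax* and *Itga1* were the genes whose levels were most like those of *Myadm* over the 10 libraries, with r of 0.97, 0.96 and 0.96. Here too r of levels takes in the difference between the genotypes, by which *Myadm* was chosen, and is a description. *Itga1*, which encodes the CD49a used in the ILC1 gate, had 971 ± 35.1 CPM in Ncr1-KO and 779 ± 30.4 CPM in Ncr1-WT ILC1s. Its log2 fold change of 0.32 passed an adjusted p of 0.05 but not the fold threshold (adjusted p = 0.000481, edgeR's quasi-likelihood test). In deviations from the genotype mean, the most like were *Cebpd*, *Acap3* and *Mef2d*, with r of 0.95, 0.94 and 0.94.

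Among the 14 listed genes of MARVEL domain proteins, 8 were tested. Apart from *Myadm*, *Cmtm6*, which stabilizes PD-L1 at the cell surface, passed an adjusted p of 0.05 with a change under the fold threshold. It had 122 CPM in Ncr1-KO and 151 CPM in Ncr1-WT ILC1s, a log2 fold change of -0.30 (adjusted p = 0.0123, edgeR's quasi-likelihood test). The median log2 fold change of the 8 genes was -0.03.

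*Ppp1r12c* had a small and regular difference between the genotypes. It encodes a regulatory subunit of myosin phosphatase, which removes phosphate from myosin light chains. It lies on the minus strand from 4433123 to 4453282, and its end is 1033 bases from that of *Eps8l1*, which runs towards it from the other side. It had 159, 158, 163, 150 and 159 CPM in Ncr1-KO replicates 1 to 5 and 137, 123, 144, 136 and 119 CPM in Ncr1-WT replicates 1 to 5. Every Ncr1-KO library was higher than every Ncr1-WT library. The mean was 158 ± 5.00 against 132 ± 10.3 CPM (SD, n = 5 each), and the log2 fold change was 0.26 (standard error 0.06). The gene that ends closest to *Eps8l1* thus differed little where *Eps8l1* differed most. Of the 14 listed genes of myosin phosphatase and its regulators, 9 were tested. None of the 8 other than *Ppp1r12c* passed an adjusted p of 0.05 (edgeR's quasi-likelihood test). The most abundant were *Ppp1r12a*, with a log2 fold change of 0.04, and the catalytic subunit gene *Ppp1ca*, with -0.02. The median over the 9 was 0.01.

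*Rdh13*, which encodes a retinol dehydrogenase of mitochondria, lies between *Ncr1* and *Eps8l1* on the minus strand from 4377267 to 4397259. It had 8.57, 11.0, 13.6, 13.8 and 13.0 CPM in Ncr1-KO replicates 1 to 5. In Ncr1-WT replicates 1 to 5 it had 7.91, 12.3, 11.0, 8.73 and 10.0 CPM. The groups overlapped, with means of 12.0 ± 2.20 and 10.0 ± 1.76 CPM (SD, n = 5 each) and a log2 fold change of 0.26 (standard error 0.17). It is the nearest tested gene on the right of *Ncr1*, 80500 bases away, and is separated from *Eps8l1* by 19077 bases. Thus a gene with little difference lay between those with the largest decreases of the 7. Among the 14 listed retinol and retinal reductases, 9 were tested and none passed an adjusted p of 0.05 (edgeR's quasi-likelihood test). *Rdh10* and *Rdh11*, the most abundant, had log2 fold changes of 0.00 and 0.18, and the median of the list was 0.00.

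*Leng8* and *Lair1* lie on the left of *Ncr1*. *Leng8*, a nuclear protein related to a family of RNA export factors, is encoded on the plus strand from 4088658 to 4099775. It had 412, 346, 394, 430.4 and 410.0 CPM in Ncr1-KO replicates 1 to 5 and 398, 377, 329, 378 and 399 CPM in Ncr1-WT replicates 1 to 5. The groups overlapped, and the log2 fold change was 0.08 (standard error 0.06). *Leng9*, the nearest tested gene on the left of *Ncr1*, ends 9 bases from *Leng8* on the other strand. It had a log2 fold change of 0.27 (standard error 0.15), which did not pass the test (adjusted p = 0.510, edgeR's quasi-likelihood test). All 15 listed genes of *Leng8* and nuclear RNA export were tested and none passed an adjusted p of 0.05 in that test. Their most abundant members, *Leng8* and *Nxf1*, had log2 fold changes of 0.08 and 0.13, and the median of the 15 was 0.06.

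*Lair1* encodes an inhibitory receptor for collagens and, like *Ncr1*, is an immunoglobulin-like receptor gene of the complex. It lies on the minus strand from 3958675 to 4014806. It had 3.87, 1.10, 6.83, 4.10 and 3.27 CPM in Ncr1-KO replicates 1 to 5 and 2.69, 1.85, 1.40, 1.11 and 3.59 CPM in Ncr1-WT replicates 1 to 5. The highest value was that of Ncr1-KO replicate 3 and the lowest that of Ncr1-KO replicate 2, so the groups overlapped widely. The log2 fold change was 0.85 with a standard error of 0.44. The kinases and phosphatases that inhibitory receptors of this kind use, *Ptpn6*, *Ptpn11*, *Inpp5d* and *Csk*, had log2 fold changes of 0.09, 0.16, -0.04 and -0.01, and none passed an adjusted p of 0.05 (edgeR's quasi-likelihood test).

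Of 16 listed immunoglobulin-like receptor genes of the leukocyte receptor complex, 13 were in the table. Those that passed the filter were *Ncr1* and *Lair1*. *Lilra5*, the next receptor gene on the left of *Ncr1*, had 39 counts in the Ncr1-KO and 33 counts in the Ncr1-WT libraries together. *Gp6*, the platelet collagen receptor on its right, had 19 and 4 counts. The paired receptor genes of the cluster (*Pira* and *Pirb*) are near-identical copies, among which the authors' counting could lose or split reads.

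The adaptors and kinases that NKp46 needs did not pass the test. *Fcer1g*, which encodes FcRγ, had 508 CPM in Ncr1-KO and 477 CPM in Ncr1-WT ILC1s, a log2 fold change of 0.09 (standard error 0.05). *Cd247*, which encodes CD3ζ, had 89.3 and 77.3 CPM, a log2 fold change of 0.21 (standard error 0.09). None of the 6 genes of this list passed an adjusted p of 0.05 (edgeR's quasi-likelihood test), and their median log2 fold change was 0.08.

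**Figure D2:**
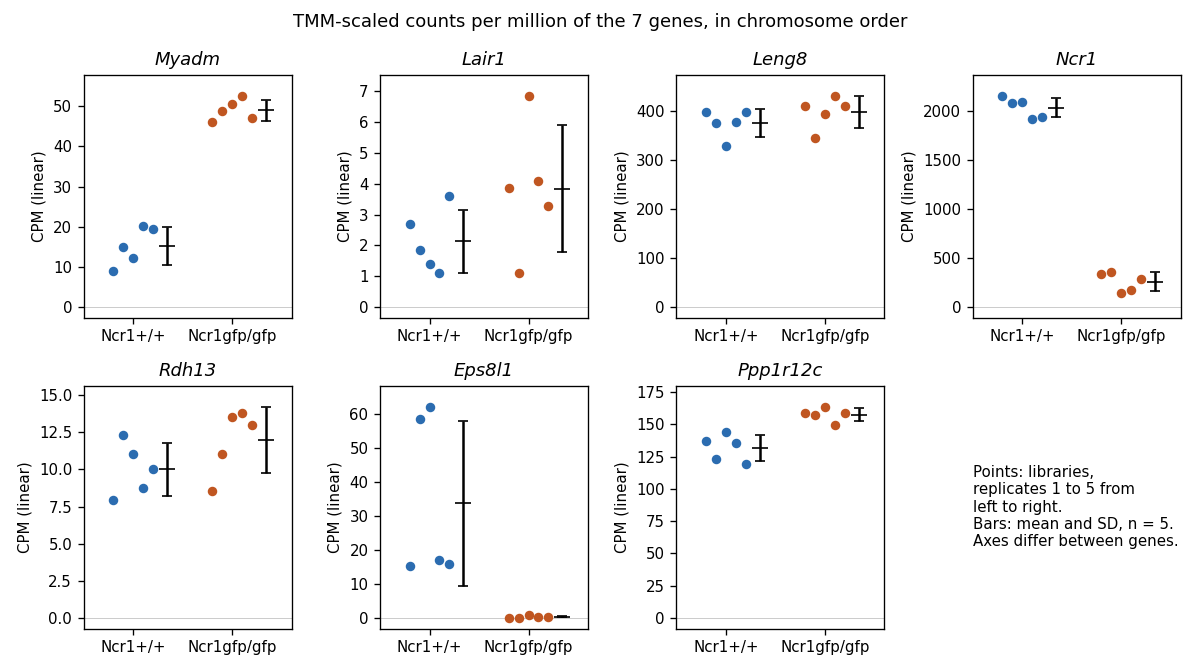
TMM-scaled CPM (y axes, linear, a separate scale for each gene) of the 7 genes in the 5 Ncr1-WT and 5 Ncr1-KO libraries, with each library a point and the mean and SD as a bar. *Ncr1* and *Eps8l1* are lower and *Myadm* and *Ppp1r12c* higher in every Ncr1-KO library, while the points of *Lair1*, *Leng8* and *Rdh13* overlap between the genotypes.

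Of the 7 genes, 3 had an adjusted p under 0.05 together with a fold above 1.5 or under 0.7 in edgeR's quasi-likelihood test, the thresholds of the study's methods. They were *Ncr1* and *Eps8l1*, which were lower, and *Myadm*, which was higher. Over all tested genes, 0.733% passed these thresholds, 0.201% as higher and 0.532% as lower in Ncr1-KO ILC1s. By the adjusted p alone, *Ppp1r12c* was added, which made 4 of the 7 against 1.35% of all tested genes. The CPM of the genotypes did not overlap for 4 of the 7, against 3.11% of all tested genes, with *Myadm* and *Ppp1r12c* higher (1.28% of all tested genes) and *Ncr1* and *Eps8l1* lower (1.82%). As the genes were chosen with this comparison known, nothing is read from these shares.

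Levels of the 7 genes relative to each other were compared as CPM per kb of exon. In Ncr1-WT ILC1s the order was *Ncr1* (1387 ± 68.3), *Leng8* (73.8 ± 5.52), *Ppp1r12c* (44.2 ± 3.47), *Eps8l1* (8.64 ± 6.22), *Myadm* (4.44 ± 1.39), *Rdh13* (3.25 ± 0.573) and *Lair1* (0.586 ± 0.279), each as CPM per kb with its SD over 5 libraries. The values of *Eps8l1* and *Myadm* overlapped, as did those of *Myadm* and *Rdh13*. The other neighbours were separate in every library. On this scale *Ncr1* ranked 10 of 11463 tested genes in Ncr1-WT ILC1s.

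In Ncr1-KO ILC1s, *Ncr1* was still the first of the 7, at 177 ± 66.6 CPM per kb and rank 182 of the 11463 tested genes. Its lowest library, at 96.7 CPM per kb, was above the highest library of *Leng8*, at 84.5 CPM per kb. *Myadm* stood above *Rdh13* without overlap, at 14.3 ± 0.765 against 3.89 ± 0.714 CPM per kb (SD, n = 5 each). *Eps8l1* fell from the fourth place to the last, at 0.0415 ± 0.0760 CPM per kb, below every value of *Lair1*.

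**Figure D3:**
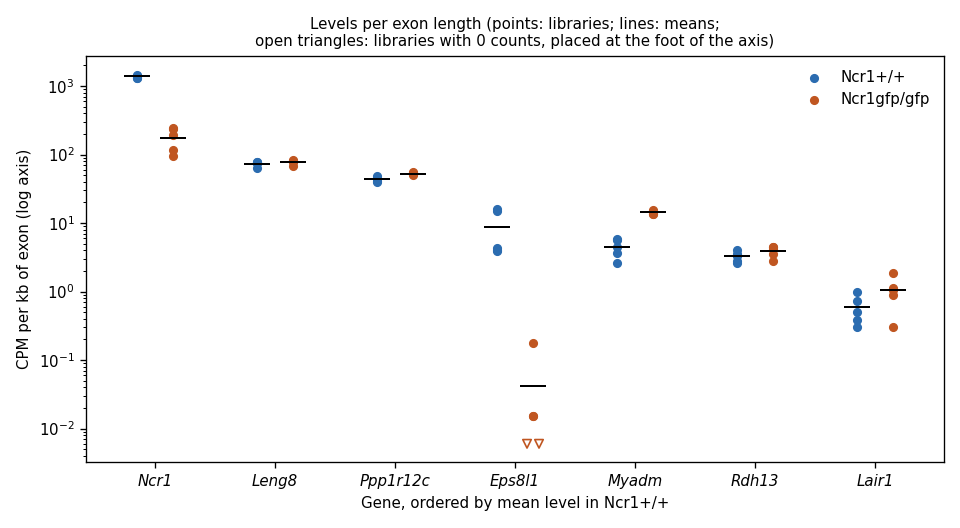
CPM per kb of exon (y axis, log scale) of the 7 genes, ordered by their mean in Ncr1-WT ILC1s, with libraries as points, means as lines, and libraries with 0 counts as open triangles at the foot of the axis. *Ncr1* is the highest gene in both genotypes, and *Eps8l1* moves from the middle of the order to its foot.

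The genes around the 7 were then taken by position, with the 7 set aside. As the 7 had been chosen in part by their difference, a lack of differences among the rest was partly fixed beforehand. Within 2 Mb of the start of *Ncr1* the table lists 110 genes, of which 44 were tested, namely the 7 and 37 others. None of the 37 was called by edgeR's quasi-likelihood test, nor by edgeR's likelihood ratio test, DESeq2 or limma-voom. Over all tested genes, 0.733% were called by the quasi-likelihood test. At an unadjusted p under 0.05 there were 6 of 37, against 11.4% of all tested genes. The log2 fold changes of the 37 had a median of 0.02, with 20 above and 17 below 0. Their median absolute log2 fold change was 0.17, against 0.10 over all tested genes. In none of the 37 did the CPM of the genotypes separate, against 3.11% of all tested genes. With shares this small, none among 37 is near what all tested genes would give.

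Nothing is read from these values about a spread of the difference with distance. The next tested gene beyond *Ppp1r12c* was *Tmem86b*, with a log2 fold change of 0.12 ± 0.13 (SE) and an adjusted p = 0.826. On the left of *Lair1* it was *Rps9*, a ribosomal protein gene, at -0.21 ± 0.08 (SE) and an adjusted p = 0.228. Both values are from edgeR's quasi-likelihood test. Ribosomal protein genes have near-identical copies elsewhere in the genome, so their counts are uncertain.

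**Figure D4:**
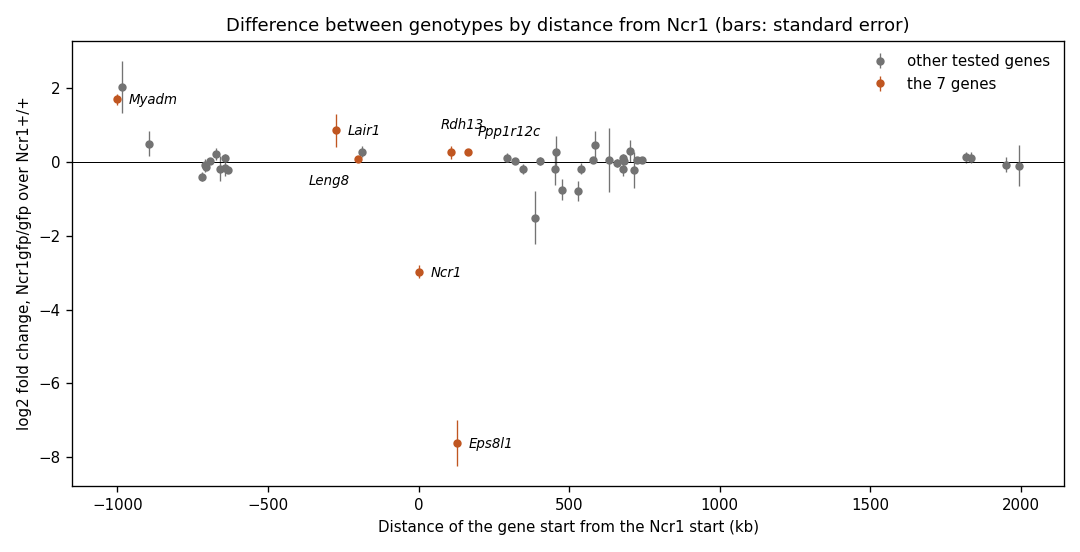
Log2 fold change of Ncr1-KO over Ncr1-WT ILC1s (y axis, with the standard error as a bar) for the 44 tested genes within 2 Mb, by the distance of their start from the start of *Ncr1* (x axis, kb). *Ncr1* at -2.97 and *Eps8l1* at -7.61 lie far below the others, with *Rdh13* between them at 0.26, and *Myadm* lies at the left edge at 1.69.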

How the data were processed

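RNA-seq was analysed for 5 Ncr1-WT and 5 Ncr1-KO liver ILC1 libraries, grouped by the genotype in their labels. By the study's methods, a SMART-Seq v4 kit made cDNA from 2 ng of RNA, and single reads had 51 cycles. The authors trimmed reads with Trimmomatic and FASTP, mapped them with STAR to a genome given as mm10 and counted them per gene with HTSeq at default parameters. The deposited counts are whole numbers without normalization. HTSeq's default takes reads on the gene's strand and drops multi-mapped reads, whereas the kit does not mark strand.

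The coordinates of the table are not those of GRCm38.p6, since 344 of 23924 matched genes share their chromosome and start with the RefSeq table of that assembly. They are given without a build. The order of the 7 genes was the same in both.

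After filterByExpr and TMM factors, genotypes were compared by quasi-likelihood F-tests (edgeR 4.0.16, R 4.3.3), with genotype as the only term and Benjamini-Hochberg adjustment over 11463 genes. Standard errors were derived from the F statistic. Alternatives were the likelihood ratio test of edgeR, DESeq2 1.42.0, limma-voom (limma 3.58.1), RLE and upper-quartile factors, other filters, thresholds and windows, a replicate block, and each library left out in turn. The sums of markers without *Ncr1* or *Itgax*, and the pooled *Eps8l1* counts, were added after the data were examined. The steps were tested on simulated data.

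The members and all gene lists were chosen with earlier results of these data known. Named genes are the 7 members, their nearest tested neighbours, called genes within 2 Mb, called and most abundant members of the lists, and the 3 genes most like *Ncr1*, *Eps8l1* and *Myadm* by Pearson's r of log2 CPM (prior count 1), in level or in deviation from the genotype mean. Some results under this rule are not reported here. Others were named after their values were seen: *Lilra5*, *Gp6*, *D630041G03Rik*, *Cd3g*, *Cd8b1*, *Trf*, *Cmtm6*, *Lilra6* and *Pirb*, and list members named in full. Over 20 same-genotype pairs of libraries, chi-square per gene was 9.18 to 24.0, above sampling noise.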

Additional observations from a re-analysis of the deposited data

Results flagged for a closer look

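Each of the 7 genes was examined in each genotype for a library far from the other 4, as the distance to its closest neighbour divided by the whole range, with a limit of 0.71 for 5 libraries. Of 14 groups, 1 passed, and chance alone gives about 1 in 20. *Eps8l1* was at 0.688 CPM in Ncr1-KO replicate 3, where the closest neighbour had 0.0595 CPM, a gap of 0.914 of the range. The value corresponds to 13 counts.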

How the results depend on the processing

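Among 84 genes called genome-wide, the count moved by more than 1.5 times under 4 alternatives, to 138 with edgeR's likelihood ratio test, 131 with no filter on low counts, 23 with an absolute log2 fold change above 1 and 155 with no fold threshold. With each library left out in turn it was between 60 and 98. With the 7 again set aside, no other gene within 2 Mb of *Ncr1* was called under any of 22 alternatives, windows of 1 and 5 Mb included. *Ncr1* and *Myadm* passed the thresholds in all 10 fits that left out a library and all 8 other fits, with log2 fold changes of -3.12 to -2.82 and 1.55 to 1.81. *Eps8l1* passed in all 10 and in 6 of the 7 other fits that tested it. The exception was limma-voom with sample quality weights, and at least 10 counts in every library removed the gene. Its log2 fold change was between -9.92, without Ncr1-KO replicate 3, and -7.23. *Ppp1r12c*, *Rdh13*, *Lair1* and *Leng8* kept positive values in all of these fits, at 0.23 to 0.29, 0.19 to 0.36, 0.53 to 1.12 and 0.04 to 0.13, and passed the thresholds in none. The cause of these moves was not tested. As the 7 were chosen with this comparison known, their passes describe the processing only.

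Both genotypes share the replicate numbers 1 to 5, which are not stated to mark a shared animal or day. Correlations of same-numbered libraries' deviations were between -0.02 and 0.04, and 1 of 10 libraries correlated best with its own number, so the numbers were not taken as pairs. With the replicate number as a block, 87 genes were called, 76 of them among the 84, and the log2 fold changes of *Ncr1*, *Eps8l1* and *Myadm* were -3.06, -7.76 and 1.74. Levels per exon length moved by less than 1 SD without TMM factors. Depth limits *Eps8l1* in Ncr1-KO and *Lair1* in both genotypes most.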

Other observations

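Among receptor genes of the cluster that did not pass the filter, *Lilra6* had 0, 0, 8, 26 and 1 counts in Ncr1-KO replicates 1 to 5 and none in the Ncr1-WT libraries. *Pirb*, an inhibitory receptor of myeloid and B cells, had 18 counts in the Ncr1-KO and 52 counts in the Ncr1-WT libraries together. Both were named after their values were seen, and their differences were not tested.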
